A study of Mus musculus with 9 samples.

Results

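A set of 41 genes of the cell division cycle was followed in RNA from pancreatic islets, the hormone-secreting clusters of the pancreas. The genes were listed by name, 41 of the 56941 gene identifiers in the count table, covering 10 roles from G1 cyclins to the proteins of the mitotic spindle. The mice were wild-type C57BL/6J males, put at 15 weeks of age on 1 of 3 diets and kept on it for 9 months. There were 3 libraries from the low fat diet with 10% fat (LFD), 2 from the diet with 60% fat (HFD, high fat) and 4 from the diet with 89.9% fat (KD, ketogenic). The labels do not say whether a library came from 1 mouse or from several, and they name no islet isolation, extraction or sequencing batch, so such a batch and the diet cannot be told apart.

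A cell enters division when D-type cyclins and their kinases inactivate the retinoblastoma protein, which frees E2F factors to switch on cyclin E and the genes for DNA replication. Cyclin A and cyclin B with Cdk1 then drive the G2 phase and mitosis, and the transcripts of mitosis are made mostly in cells that are passing through it. Beta cells of adult mice divide rarely. Cyclin D2 is the main D-type cyclin of mouse beta cells, and p16, made from Cdkn2a, accumulates in islets with age.

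A few promoter stretches are shown because the genes of mitosis and those of DNA replication are described apart below. RefSeq promoters on the GRCm38.p6 build, from 250 bases before to 50 after the start of each gene, were at hand for 32 of the 41 genes. The cell cycle homology element TTTGAA, bound by the DREAM and MuvB complexes, was searched on both strands and found in 15 of the 32, against 20.2% of all 27025 genes of that table. It was present in 12 of 17 genes of the mitotic roles, with no match in Ccnb1, Bub1, Birc5, Cenpe and Nusap1, and in 1 of 9 genes of replication and nucleotide synthesis, Mcm2. CCAAT, bound by NF-Y, was found on either strand in 25 of the 32 (41.1% of all genes), and all 15 genes with TTTGAA also held it (8.97% of all genes). The E2F letters TTTGGCGC, TTTCCCGC or TTTCGCGC, which can overlap each other, were present in 6 of the 32 (2.12% of all genes), namely Mcm3, Mcm5, Mcm6, Mcm7, Cdk1 and Cdkn2a. A match describes letters in a window and is not shown to be a bound site. The stretches below run 5′ to 3′ on the strand of the gene, lie before its start on GRCm38.p6, and carry these letters or their reverse complements in capitals.
Mki67, chr7:135716380-135716579, minus strand: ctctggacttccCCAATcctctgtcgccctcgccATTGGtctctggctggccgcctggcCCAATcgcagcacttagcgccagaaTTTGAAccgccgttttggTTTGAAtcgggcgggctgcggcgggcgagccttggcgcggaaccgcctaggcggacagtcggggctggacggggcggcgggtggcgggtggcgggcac
Top2a, chr11:99024190-99024299, minus strand: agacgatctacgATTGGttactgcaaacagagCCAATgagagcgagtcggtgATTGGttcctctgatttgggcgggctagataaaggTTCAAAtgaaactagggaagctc
Cdk1, chr10:69352913-69353052, minus strand: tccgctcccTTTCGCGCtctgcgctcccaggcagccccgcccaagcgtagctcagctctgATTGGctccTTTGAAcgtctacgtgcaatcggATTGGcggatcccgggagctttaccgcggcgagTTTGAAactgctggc
Kif11, chr19:37376322-37376381, plus strand: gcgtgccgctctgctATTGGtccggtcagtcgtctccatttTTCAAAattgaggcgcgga
Cdc20, chr4:118437344-118437403, minus strand: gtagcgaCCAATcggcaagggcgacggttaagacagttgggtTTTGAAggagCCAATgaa
Mcm6, chr1:128359706-128359825, minus strand: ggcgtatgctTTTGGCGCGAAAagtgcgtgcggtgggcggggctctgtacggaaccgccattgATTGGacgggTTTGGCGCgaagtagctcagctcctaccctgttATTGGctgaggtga
Of these, Mki67 to Cdc20 show TTTGAA or its reverse TTCAAA beside CCAAT or its reverse ATTGG. In Mcm6 the run TTTGGCGCGAAA holds TTTGGCGC overlapping the reverse of TTTCGCGC.

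Libraries held 15513502 to 26588390 counts, and 38 of the 41 genes passed the filter on low counts, among 18548 genes tested. Levels are given as CPM, counts brought to a common library total, on library sizes scaled by TMM, which sets the bulk of genes level between libraries. Aurkb, Bub1 and Ube2c did not pass, with 50, 54 and 46 counts over all libraries. Beta cell markers summed to 31045 to 109905 CPM and alpha cell markers to 5929 to 16981 CPM, so the labelled tissue was present in every library. Acinar markers, from the enzyme-secreting tissue around islets, took 8.83% to 26.8% of counts on LFD and HFD, 33.7% to 46.0% in KD replicates 1 to 3 and 15.3% in KD replicate 4. B lymphocyte markers (9 genes) summed to 25.4 to 139 CPM on LFD, 3.85 and 4.86 CPM on HFD and 1.158 to 2.57 CPM on KD. T lymphocyte markers (8 genes) summed to 5.63 to 43.0 CPM on LFD, 2.001 and 2.22 CPM on HFD and 2.15 to 5.21 CPM on KD. In such bulk tissue, fewer cells of a type and less RNA per cell cannot be told apart. Since the labels do not tie libraries to animals, p-values measure only the spread between these libraries, which may be technical.

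Per kilobase of exon, Ccnd2 stood first at 85.5 CPM per kb (mean of 9 libraries), followed by Ccnd1 at 21.9, Pcna at 7.57 and Cdkn1a at 3.40 CPM per kb. Mcm7, Mcm6 and Mcm4 followed at 2.34, 2.15 and 2.11 CPM per kb, with library values that overlapped. Mki67 measured 0.686 and Top2a 0.489 CPM per kb. The mitotic genes lay at the foot of this order, with Ccnb1 at 0.112, Cenpf at 0.0977 and Bub1 last at 0.0679 CPM per kb. Exon lengths came from GENCODE M21, an annotation of GRCm38 that was not the one counted on, so close neighbours in the order are not separated.

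Between KD and LFD, 1 of the 38 genes tested passed an edgeR adjusted p of 0.05, against 4.12% of all genes tested. It was Cenpa (ENSMUSG00000029177), which encodes the histone H3 variant that marks centromeres, and it was lower on KD. Cenpa measured 3.37, 2.87 and 0.844 CPM in LFD replicates 1 to 3, 2.55 and 1.55 CPM in HFD replicates 1 and 2, and 0.311, 0.579, 0.445 and 0.851 CPM in KD replicates 1 to 4. KD replicate 4 and LFD replicate 3 were nearly equal, so the groups overlapped at that one point, and the other 3 KD libraries lay below every LFD library. On raw library sizes all KD libraries lay below all LFD libraries, as in 22.8% of all genes. The same held on library sizes without acinar marker counts, as in 21.7% of all genes. The counts behind these levels were 137 on LFD, 88 on HFD and 41 on KD, summed over libraries, and KD replicate 1 had 4. The log2 fold change was -2.04 (SE 0.51, interval -3.17 to -0.91, edgeR adjusted p 0.0496), or 4.11-fold lower.

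The Cenpa call sat at the threshold. It ended without LFD replicate 1 (adjusted p 0.180) or LFD replicate 2 (0.118), without HFD replicate 1 (0.0709) or HFD replicate 2 (0.0708), and without KD replicate 1 (0.101), KD replicate 2 (0.114) or KD replicate 3 (0.127), and held without LFD replicate 3 or KD replicate 4. It also ended with DESeq2 size factors (0.0509), with a stricter filter on low counts (0.0539) and with only the 2 diets fitted (0.0723), and held with the DESeq2 Wald test (which called 9.56% of all genes) and limma-voom (10.1%). With lymphocyte marker levels as a covariate the log2 fold change was 0.40 (edgeR adjusted p 0.913). That covariate follows the diets closely, since B lymphocyte markers were at least 25.4 CPM on LFD and at most 4.86 CPM elsewhere.

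No gene of the list was higher on KD by that test (0.981% of all genes were called higher and 3.14% lower). Only Cenpa and Pcna had an unadjusted p below 0.05, 2 of 38 where 22.7% of all genes did. Of the 38 genes 25 had a log2 fold change below 0, against 51.9% of all genes, with a median of -0.21 against -0.02 for all genes. Without LFD replicate 2 that median was 0.05. Without KD replicate 4 it was -0.53, and 14 of 37 genes had an unadjusted p below 0.05, where 25.6% of all genes did. The sign and size of the group's median thus rested on single libraries.

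**Figure D1:**
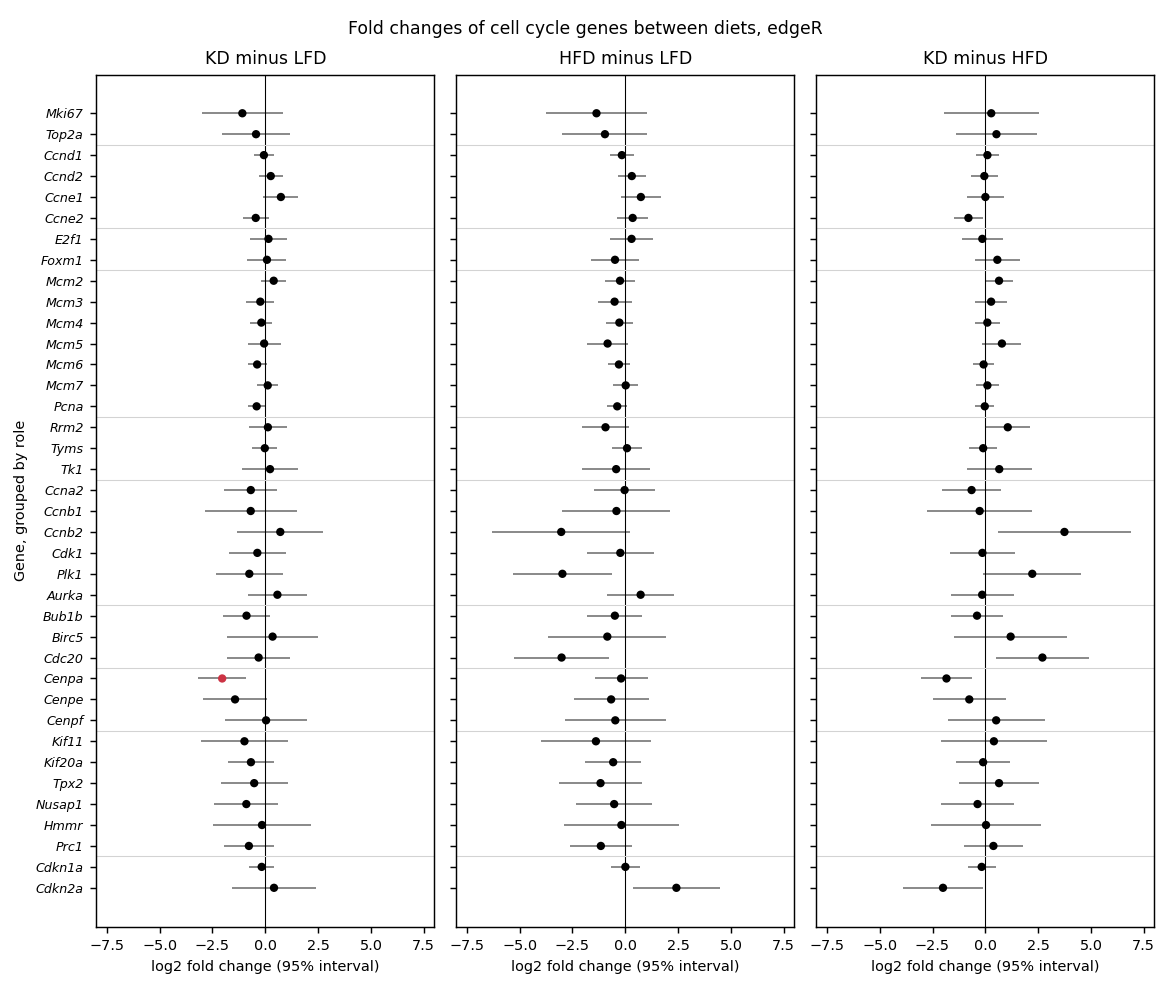
Fold changes of the 38 genes tested between diets. Points are edgeR log2 fold changes, lines are 95% intervals, genes are grouped by role from top to bottom, and red marks an adjusted p below 0.05. Only Cenpa in KD minus LFD is red, and most intervals of the mitotic genes are several log2 units wide and include 0.

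Mki67 and Top2a are the usual tissue markers of proliferation, a protein coating mitotic chromosomes and the topoisomerase that untangles them. Mki67 measured 8.40, 21.1 and 3.52 CPM in LFD replicates 1 to 3, 7.003 and 1.63 CPM in HFD replicates 1 and 2, and 3.03, 1.83, 2.67 and 12.9 CPM in KD replicates 1 to 4. LFD replicate 2 and KD replicate 4 were high and HFD replicate 2 and KD replicate 2 low, so all 3 diets overlapped. Counting error was small beside this, since the 287 counts of KD replicate 4 give a Wilson 95% interval of 11.5 to 14.4 CPM and the 39 of KD replicate 1 one of 2.22 to 4.15 CPM. The log2 fold change of Mki67 was -1.09 (SE 0.83, interval -2.99 to 0.82, edgeR adjusted p 0.477) for KD against LFD and -1.36 (SE 1.05, interval -3.76 to 1.03, edgeR adjusted p 0.675) for HFD against LFD. Top2a measured 4.97, 9.45 and 2.77 CPM in LFD replicates 1 to 3, 4.45 and 1.47 CPM in HFD replicates 1 and 2, and 1.48, 1.74, 2.76 and 10.6 CPM in KD replicates 1 to 4. The same libraries were high, and in Top2a KD replicate 4 exceeded LFD replicate 2. Its log2 fold change was -0.44 (SE 0.72, interval -2.06 to 1.18, edgeR adjusted p 0.761) for KD against LFD. Neither gene passed the test in any comparison.

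The G1 and S cyclins gave the steadiest values besides the replication genes, with a median coefficient of biological variation within diets of 0.253. Ccnd2 measured 619, 674 and 823 CPM in LFD replicates 1 to 3, 846 and 899 CPM in HFD replicates 1 and 2, and 556, 864, 714 and 1241 CPM in KD replicates 1 to 4. KD replicate 4 was the highest library and KD replicate 1 the lowest. HFD lay above all of LFD by a small margin, and the log2 fold changes were 0.31 (SE 0.30) for HFD against LFD and 0.26 (SE 0.26) for KD against LFD, with edgeR adjusted p of 0.736 and 0.581. With acinar marker levels as a covariate Ccnd2 was called higher on KD than on LFD (log2 fold change 0.63, edgeR adjusted p 0.0185). That fit called 8.03% of all genes. Ccnd1, cyclin D1, measured 111, 119 and 93.8 CPM in LFD replicates 1 to 3, 88.5 and 104 CPM in HFD replicates 1 and 2, and 79.8, 107, 77.2 and 148 CPM in KD replicates 1 to 4. The diets overlapped, and its interval for KD against LFD, -0.53 to 0.40, was among the narrow ones.

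Ccne1 encodes one of the cyclins E that start DNA replication. On TMM-scaled sizes it was the only gene whose KD libraries all lay above all LFD libraries (9.69% of all genes). No gene of the list lay wholly below on that scale (10.1%). Ccne1 measured 0.736, 0.672 and 0.891 CPM in LFD replicates 1 to 3, 1.65 and 0.922 CPM in HFD replicates 1 and 2, and 1.17, 1.158, 1.42 and 1.39 CPM in KD replicates 1 to 4. Both HFD libraries were above LFD as well. The log2 fold change was 0.74 (SE 0.38, interval -0.09 to 1.57, edgeR adjusted p 0.273) for KD against LFD and 0.74 (SE 0.44) for HFD against LFD, so the difference did not pass the test. The separation of KD from LFD rested on the TMM scaling, while that of HFD from LFD held on the other scalings too. On raw library sizes KD replicates 1 to 3 (0.632, 0.978 and 0.881 CPM) lay below LFD replicate 3 (1.117 CPM). On sizes without acinar counts KD replicate 1 (1.169 CPM) lay below LFD replicate 3 (1.267 CPM). Its sister Ccne2 ran from 4.66 to 7.18 CPM on LFD, 6.33 to 7.90 on HFD and 2.57 to 5.74 on KD. Its KD and HFD ranges did not meet, with a log2 fold change for KD against HFD of -0.80 (SE 0.31, interval -1.48 to -0.12, edgeR adjusted p 0.169).

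The transcription factors of the 2 waves were E2f1, for entry into S phase, and Foxm1, for G2 and mitosis. E2f1 measured 3.80, 4.21 and 6.66 CPM in LFD replicates 1 to 3, 7.40 and 4.65 CPM in HFD replicates 1 and 2, and 2.80, 4.46, 4.36 and 9.90 CPM in KD replicates 1 to 4. KD replicate 4 was well above the other KD libraries, and the diets overlapped. Foxm1 measured 1.23, 1.08 and 1.17 CPM in LFD replicates 1 to 3, 0.850 and 0.796 CPM in HFD replicates 1 and 2, and 0.545, 1.11, 1.34 and 1.84 CPM in KD replicates 1 to 4. Both HFD libraries were below the lowest LFD library, and KD spanned the range of both. Log2 fold changes for KD against LFD were 0.15 (SE 0.40) for E2f1 and 0.08 (SE 0.42) for Foxm1, with edgeR adjusted p of 0.857 and 0.936.

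Replication licensing was carried by Mcm2 to Mcm7, the helicase that opens origins, and by Pcna, the sliding clamp of the polymerases. These 7 genes had a median coefficient of variation of 0.230, and their summed level differed by 1.65-fold between the highest library and the lowest, or by 3.26-fold on raw library sizes and 2.34-fold on sizes without acinar counts. Mcm2 measured 9.56, 11.7 and 5.39 CPM in LFD replicates 1 to 3, 8.004 and 6.91 CPM in HFD replicates 1 and 2, and 12.2, 9.98, 9.17 and 15.2 CPM in KD replicates 1 to 4. LFD replicate 3 was the lowest of all libraries and KD replicate 4 the highest, and the KD libraries were all above both HFD libraries, with a log2 fold change of 0.65 (SE 0.31). On raw library sizes KD replicates 1 to 3 (6.61, 8.42 and 5.67 CPM) lay below both HFD libraries instead (9.81 and 10.4 CPM), and on sizes without acinar counts KD replicate 3 did (9.84 CPM). Pcna measured 22.1, 24.96 and 18.1 CPM in LFD replicates 1 to 3, 19.3 and 14.0 CPM in HFD replicates 1 and 2, and 16.3, 14.5, 14.2 and 20.2 CPM in KD replicates 1 to 4. LFD replicates 1 and 2 were above all the others, KD replicate 4 exceeded LFD replicate 3, and the log2 fold change for KD against LFD was -0.41 (SE 0.18, interval -0.81 to -0.01, edgeR adjusted p 0.212). limma-voom with sample weights called Pcna lower on KD (adjusted p 0.0454), where it called 10.1% of all genes. The other 5 Mcm genes had log2 fold changes of -0.39 to 0.12 for KD against LFD and none passed.

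Of the genes for DNA precursors, Rrm2, the regulated subunit of ribonucleotide reductase, measured 3.31, 4.44 and 2.35 CPM in LFD replicates 1 to 3, 2.701 and 0.838 CPM in HFD replicates 1 and 2, and 4.82, 2.54, 4.45 and 3.002 CPM in KD replicates 1 to 4. HFD replicate 2 was low, and KD replicates 1 and 3 were above the rest of KD, an order unlike that of the mitotic genes. The log2 fold change was 1.06 (SE 0.49, interval -0.005 to 2.13, edgeR adjusted p 0.223) for KD against HFD. Tyms, thymidylate synthase, ran from 3.66 to 6.54 CPM over all libraries and Tk1, thymidine kinase, from 0.141 to 0.896 CPM. KD replicate 4 was the highest KD library in none of these 3 genes on TMM-scaled sizes, but in all 3 on raw library sizes and in Tyms and Tk1 on sizes without acinar counts.

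The cyclins and kinases of mitosis stood near the limit of counting. Cdk1, the mitotic kinase, measured 0.797, 1.12 and 0.891 CPM in LFD replicates 1 to 3, 1.10 and 0.503 CPM in HFD replicates 1 and 2, and 0.545, 0.356, 0.267 and 1.61 CPM in KD replicates 1 to 4. KD replicate 4 was again the highest library, the other KD libraries were below all LFD libraries, and the log2 fold change was -0.38 (SE 0.61) for KD against LFD. Ccnb1, cyclin B1, measured 0.736, 1.03 and 0.0938 CPM in LFD replicates 1 to 3, 0.900 and 0.0419 CPM in HFD replicates 1 and 2, and 0.0778, 0.178, 0.356 and 0.851 CPM in KD replicates 1 to 4. HFD replicate 2 and KD replicate 1 rested on 1 count each and LFD replicate 3 on 2, and within each diet the libraries spread over several-fold. Ccnb2, cyclin B2, measured 0.429, 0.807 and 0 CPM in LFD replicates 1 to 3, 0 and 0.0838 CPM in HFD replicates 1 and 2, and 0.311, 0.356, 0.980 and 1.08 CPM in KD replicates 1 to 4. The 2 zeros allow up to 0.141 CPM in LFD replicate 3 and 0.150 CPM in HFD replicate 1, at 3 counts. Plk1, which sets up the spindle poles, measured 0.429, 1.25 and 0.657 CPM in LFD replicates 1 to 3, 0.200 and 0 CPM in HFD replicates 1 and 2, and 0.467, 0.178, 0.445 and 0.762 CPM in KD replicates 1 to 4. HFD replicate 2 had no count, which allows up to 0.126 CPM. Ccna2 and Aurka ran from 0.579 to 2.60 and from 0.156 to 1.75 CPM, and none of the 6 genes tested passed in any comparison.

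Among the checkpoint and anaphase genes, Cdc20, the activator of the anaphase-promoting complex, measured 0.858, 1.30 and 0.234 CPM in LFD replicates 1 to 3, 0.150 and 0.0419 CPM in HFD replicates 1 and 2, and 0.545, 0.312, 0.445 and 1.21 CPM in KD replicates 1 to 4. Both HFD libraries were below all the others. Bub1b, the checkpoint kinase-like protein BubR1, ran from 0.797 to 2.06 CPM on LFD and 0.311 to 1.25 on KD, with a log2 fold change of -0.89 (SE 0.50). Birc5, survivin of the chromosomal passenger complex, reached at most 0.672 CPM. Of the 3 genes not tested, Aurkb peaked at 1.03 CPM in LFD replicate 2, and Ube2c and Bub1 at 0.986 and 0.762 CPM in KD replicate 4.

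At the kinetochore, Cenpe, the motor that carries chromosomes to the metaphase plate, measured 1.04, 2.60 and 1.03 CPM in LFD replicates 1 to 3, 1.65 and 0.335 CPM in HFD replicates 1 and 2, and 0.156, 0.579, 0.267 and 1.17 CPM in KD replicates 1 to 4. KD replicate 4 lay among the LFD libraries and the other 3 KD libraries below them. The log2 fold change was -1.43 (SE 0.69, interval -2.94 to 0.08, edgeR adjusted p 0.244) for KD against LFD. Cenpf was highest in KD replicate 4 at 4.70 CPM, where the other KD libraries had 0.356 to 0.700 CPM and LFD 0.844 to 2.15 CPM. The 6 genes of the spindle and its midzone, Kif11, Kif20a, Tpx2, Nusap1, Hmmr and Prc1, had log2 fold changes of -0.99 to -0.16 for KD against LFD and -1.39 to -0.19 for HFD against LFD. All were below 0, none passed the test, and the median coefficient of variation was 0.602. Kif11, the motor that separates spindle poles, ran from 0.0838 CPM in HFD replicate 2 to 4.62 CPM in LFD replicate 2, with a coefficient of 0.836. Hmmr, a spindle assembly protein, ran from 0 to 1.39 CPM, with a coefficient of 0.921.

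The inhibitors of cyclin-dependent kinases listed here were Cdkn1a and Cdkn2a. Cdkn1a, which encodes p21, measured 12.4, 16.1 and 9.66 CPM in LFD replicates 1 to 3, 10.2 and 15.4 CPM in HFD replicates 1 and 2, and 6.85, 12.3, 11.04 and 14.9 CPM in KD replicates 1 to 4. The diets overlapped, with log2 fold changes of -0.17 (SE 0.27) for KD and 0.003 (SE 0.32) for HFD against LFD. Cdkn2a measured 0.0613, 0.224 and 0.234 CPM in LFD replicates 1 to 3, 0.700 and 1.26 CPM in HFD replicates 1 and 2, and 0, 0.0891, 0.356 and 0.493 CPM in KD replicates 1 to 4. Both HFD libraries were above every other library, from 44 HFD counts against 11 on LFD and 17 on KD. KD replicate 1 had no count, which allows up to 0.233 CPM. The locus makes both p16 and p19Arf, which counts per gene do not separate.

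**Figure D2:**
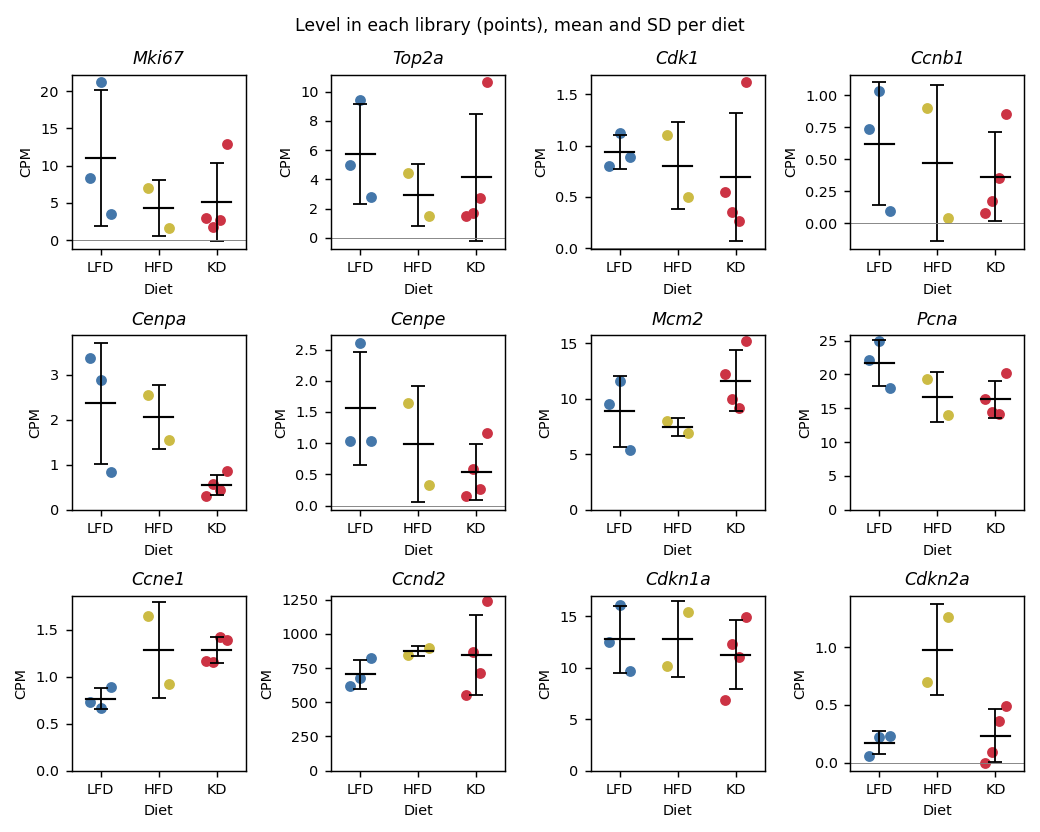
Levels of 12 cell cycle genes by diet in CPM. Each point is a library, the horizontal line is the mean and the bar 1 SD on either side, and the diets are LFD (blue, n = 3), HFD (yellow, n = 2) and KD (red, n = 4). In Mki67, Top2a and Cdk1 a single KD library stands above the other 3, in Cenpa all KD libraries are at or below 0.851 CPM, and in Cdkn2a both HFD libraries are above all others.

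Between HFD and LFD no gene of the list passed the edgeR test, and 0% of all genes did. The DESeq2 Wald test (1.44% of all genes) and limma-voom (0.0539%) also called 0 of the 38. An unadjusted p below 0.05 was found for 3 genes, against 9.99% of all genes, 2 of them lower (6.44% of all genes) and 1 higher (3.55%). The log2 fold changes were -3.02 (SE 1.02, interval -5.24 to -0.79, edgeR adjusted p 0.397) for Cdc20 and -2.98 (SE 1.07, interval -5.32 to -0.64, edgeR adjusted p 0.422) for Plk1. Both rested on 4 HFD counts against 48 and 49 on LFD. As ratios of summed rates they were 0.114 and 0.112, with exact 95% intervals of 0.0298 to 0.311 and 0.0292 to 0.304 that cover counting error only. For Cdkn2a the log2 fold change was 2.42 (SE 0.94, interval 0.35 to 4.48, edgeR adjusted p 0.449). The ratio of summed rates was 5.47, with an exact interval of 2.78 to 11.7.

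Of the 38 genes 29 were below 0 in HFD against LFD (50.2% of all genes), with a median log2 fold change of -0.43 against -0.0017 for all genes. The HFD libraries lay above all LFD libraries in 4 genes (Ccnd2, Ccne1, Aurka and Cdkn2a, against 13.4% of all genes) and below them in 5 (Foxm1, Mcm5, Mcm6, Plk1 and Cdc20, against 14.1%). On raw library sizes Mcm5 and Mcm6, and on sizes without acinar counts Mcm6, were no longer apart, and the other genes named were. Of all genes 21.4% lay above and 7.2% below on raw library sizes, and 17.3% and 10% on sizes without acinar counts. HFD replicate 2 weighed on this, since the median was -0.14 in its absence and -0.89 in that of HFD replicate 1. The median was -0.10 once LFD replicate 2 was left out.

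Between KD and HFD the edgeR test again called 0 of 38 genes, and 0% of all genes. The DESeq2 Wald test called 1, Cenpa, where it called 8.18% of all genes, and limma-voom called 0 of the 38 and 0% of all genes. An unadjusted p below 0.05 was found for 5 genes (22.7% of all genes). The log2 fold change of Cenpa was -1.84 (SE 0.56, interval -3.07 to -0.61, edgeR adjusted p 0.125), and its ranges did not meet. Without KD replicate 4 this passed (edgeR adjusted p 0.0488), where 9.84% of all genes did. For Cdc20 it was 2.701 (SE 0.997, interval 0.52 to 4.88, edgeR adjusted p 0.156) and for Ccnb2 3.74 (SE 1.43, interval 0.60 to 6.88, edgeR adjusted p 0.164). The HFD side of these was 4 and 2 counts, and the ratio of summed rates for Ccnb2 was 15.0, with an exact interval of 3.92 to 127. For Cdkn2a it was -2.005 (SE 0.86, interval -3.89 to -0.12, edgeR adjusted p 0.200), and Ccne2 is given above. The KD libraries lay above both HFD libraries in 4 genes (Mcm2, Mcm5, Ccnb2 and Cdc20, against 15.7% of all genes) and below in 3 (Ccne2, Cenpa and Cdkn2a, against 18.2%). On either of the other scalings Mcm2 and Mcm5 were no longer apart, and the other genes named were. The shares of all genes moved as well. On raw library sizes 1.6% lay above and 45.3% below, and on sizes without acinar counts 4.37% and 35.7%. Of the 38 genes 17 were below 0 (53.2% of all genes). The median log2 fold change was 0.06 against -0.04 for all genes. Leaving out KD replicate 4 gave -0.29, leaving out HFD replicate 2 gave -0.16 and leaving out HFD replicate 1 gave 0.62. KD against LFD and HFD against LFD share the LFD libraries, and both of the comparisons with HFD share its 2 libraries.

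Within each diet 1 library held the highest level of most of these genes. KD replicate 4 was the highest KD library for 33 of the 38 genes, against 34.5% of all genes tested. LFD replicate 2 was the highest LFD library for 29, against 32.8%, and HFD replicate 1 exceeded HFD replicate 2 for 31, against 52.9%. On raw library sizes these counts were 38 (79.5% of all genes), 31 (41.5%) and 27 (30.1%), and on sizes without acinar counts 37 (55.3%), 31 (43.0%) and 28 (36.8%), so both the counts and their background depend on the scaling. On TMM-scaled sizes all of these held together for 21 of the 38 genes, against 3.96% of all genes. These libraries were picked as the highest for most of the same genes, so part of that difference is built in. The joint count was not made on the other scalings. The 21 were Mki67, Top2a, Mcm2, Mcm4, Mcm5, Pcna, Ccna2, Ccnb1, Cdk1, Plk1, Aurka, Bub1b, Birc5, Cdc20, Cenpe, Cenpf, Kif11, Kif20a, Tpx2, Nusap1 and Hmmr. None of the G1 and S cyclins, E2f1, Foxm1, the nucleotide genes or the kinase inhibitors was among them.

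**Figure D3:**
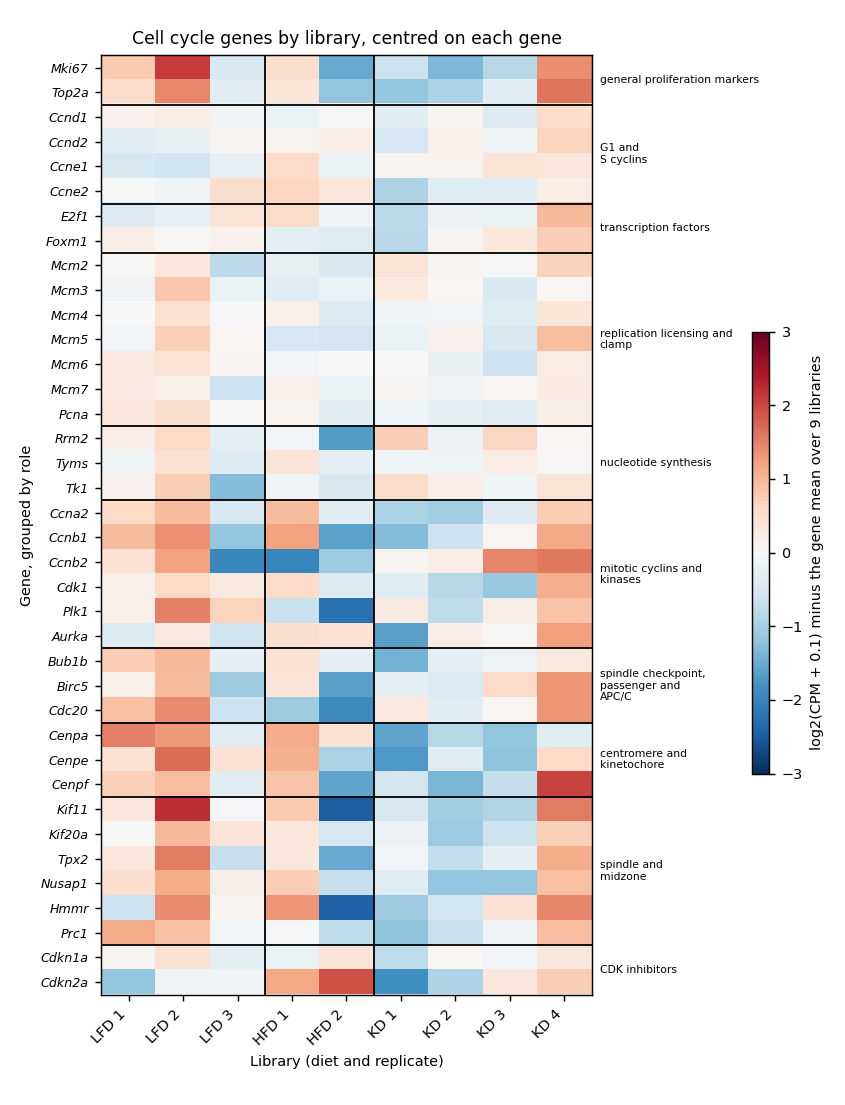
Level of the 38 genes tested in each library, as log2(CPM + 0.1) minus the mean of the gene over 9 libraries. Red is above and blue below that mean, rows are genes grouped by role, columns are libraries, and black lines separate roles and diets. From Ccna2 to Prc1 the columns of LFD replicate 2 and KD replicate 4 are mostly red and those of HFD replicate 2 and KD replicates 1 and 2 mostly blue, while the cyclin D and Mcm rows are pale.

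Among the roles, Mki67 and Top2a and the genes of mitosis had the largest spread. Summed over Mki67 and Top2a, LFD replicates 1 to 3 had 13.4, 30.6 and 6.28 CPM, HFD replicates 1 and 2 had 11.5 and 3.10 CPM, and KD replicates 1 to 4 had 4.51, 3.56, 5.43 and 23.5 CPM. KD replicate 4 was 5.20 times the median of the other KD libraries for this pair, 5.03 times for the centromere and kinetochore genes, 3.44 times for the spindle genes and 1.39 times for the licensing genes. On library sizes without TMM scaling these ratios were 9.12, 9.51, 6.47 and 2.69, and on library sizes without acinar counts 7.14, 6.47, 4.74 and 1.72. The median coefficient of variation within diets was 0.688 for Mki67 and Top2a, 0.600 for kinetochore genes and 0.522 for mitotic cyclins and kinases.

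Markers of other cells moved with these levels in some libraries. LFD replicate 2 had the highest B lymphocyte sum, 139 CPM, with 67.6 CPM in LFD replicate 1 and 25.4 CPM in LFD replicate 3, the same order as for Mki67 and Top2a, and T lymphocyte markers were in that order too at 43.0, 12.4 and 5.63 CPM. Macrophage markers, at 129, 125 and 73.0 CPM in LFD replicates 2, 1 and 3, and the germinal centre list below shared that order. The sums of the other marker lists did not. In HFD replicate 1 Mki67 and Top2a were higher than in HFD replicate 2. The B lymphocyte sum was lower there (3.85 against 4.86 CPM), as was the T lymphocyte sum (2.001 against 2.22 CPM). The part of these cells in the LFD and HFD values was not tested. In KD replicate 4 the B and T lymphocyte sums were 1.66 and 2.15 CPM, beside 1.158 to 2.57 and 3.16 to 5.21 CPM in the other KD libraries, so the high mitotic levels there came with few lymphocyte counts. The 7 germinal centre B cell markers summed to 26.57 CPM there and to 9.89 to 17.2 CPM in the other KD libraries. Rgs13 was at 0 in all 4 KD libraries. That list summed to 16.56 to 28.86 CPM on LFD and to 15.01 and 14.71 CPM in HFD replicates 1 and 2. In every HFD and KD library it was above the B lymphocyte sum. Its level there is thus not shown to come from germinal centre B cells, and its source was not tested. On TMM-scaled sizes KD replicate 4 also had the highest beta cell sum, 109905 CPM, with HFD replicate 1 at 105384 CPM and the other KD libraries at 31045 to 60170 CPM. On raw library sizes HFD replicate 1 was higher (129142 against 128396 CPM). Alpha cell markers were highest in KD replicate 4 too, at 16981 CPM against 7582 to 10988 CPM in the other KD libraries. KD replicate 4 had the lowest acinar sum of the KD libraries. Macrophage markers were 71.7 CPM in it and 36.2 to 61.2 CPM in the other KD libraries. The part of these cell types in the KD values was not tested.

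**Figure D4:**
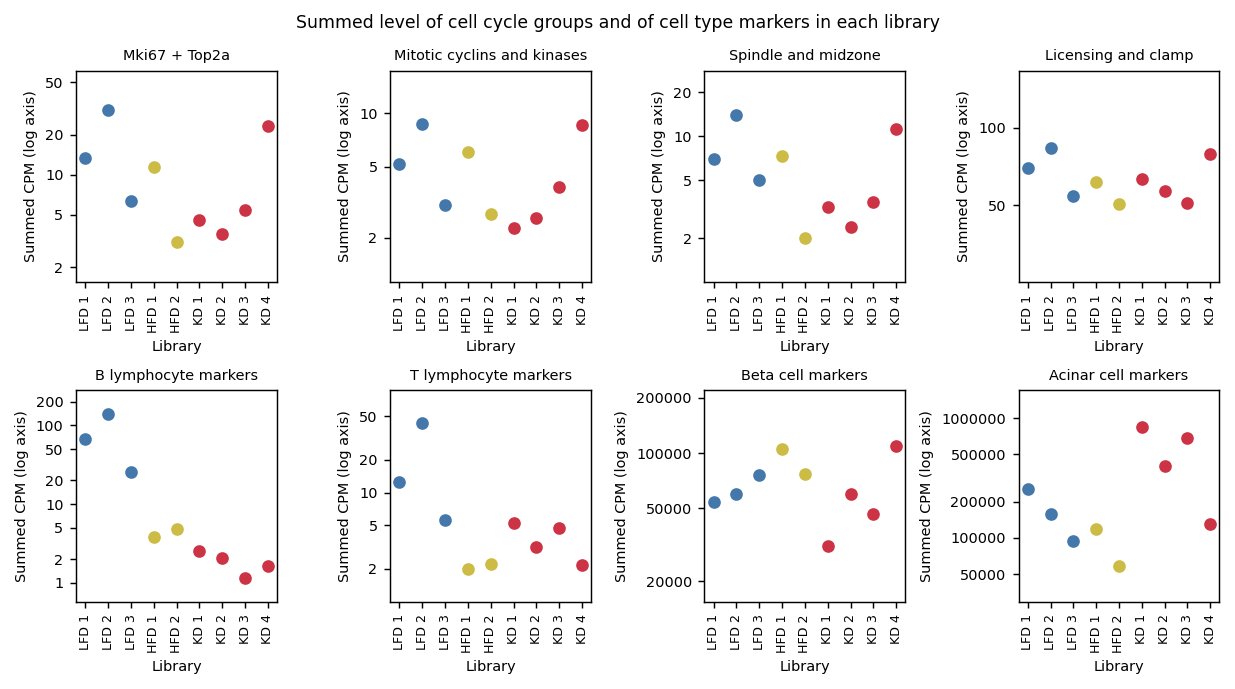
Summed CPM on log axes of 4 groups of cell cycle genes (top) and 4 lists of cell type markers (bottom) in each library, LFD blue, HFD yellow and KD red. KD replicate 4 reaches 23.5 CPM for Mki67 and Top2a with 1.66 CPM of B lymphocyte markers, while LFD replicate 2 reaches 30.6 CPM with 139 CPM of those markers.

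Of 159 further genes of the cycle and its control, in 5 lists, 145 were tested, and 3 of them passed for KD against LFD, all lower and all p53 targets. These were 3 of 18 p53 targets tested, where 3.14% of all genes were called lower. Btg2, an antiproliferative gene, fell to 107 ± 11.4 CPM (SD, 4 KD libraries) from 191 ± 42.6 CPM (SD, 3 LFD libraries), a log2 fold change of -0.84 (SE 0.16, edgeR adjusted p 0.0220). Trp53inp1, a p53-induced nuclear protein, fell from 122 ± 4.20 to 66.9 ± 8.87 CPM (log2 fold change -0.87, edgeR adjusted p 0.0365). Pmaip1, the death inducer Noxa, fell from 2.62 ± 1.30 to 0.509 ± 0.341 CPM (log2 fold change -2.33, edgeR adjusted p 0.0439). The list as a whole had a median of 0.07, with 10 of 18 genes above 0. Each of these calls ended without LFD replicate 1 or 2 or KD replicate 1, 2 or 3, with adjusted p of 0.0501 to 0.155, that for Trp53inp1 also without LFD replicate 3 (0.0675) and that for Pmaip1 without either HFD library (0.0681 and 0.0689) or with only the 2 diets fitted (0.0668). With the lymphocyte covariate none of the 3 passed, and that fit called 0% of all genes. It gave log2 fold changes of -1.12 for Trp53inp1 (edgeR adjusted p 0.430), -0.04 for Btg2 (0.979) and -0.06 for Pmaip1 (0.989).

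In the edgeR test no gene passed among 36 other replication genes, 39 other mitosis genes, 28 other G1 control genes and 24 regulators of beta cell proliferation. The lowest p among the replication genes belonged to Pola1, DNA polymerase alpha (log2 fold change -0.59, edgeR adjusted p 0.0774), Fen1, the flap endonuclease (0.75), and Gmnn, geminin (-0.87). Among the mitosis genes these were Smc4, a condensin subunit (-0.80, edgeR adjusted p 0.0590), Anln, anillin (0.93), and Kif23, a midzone motor (-0.99). Other mitosis genes were below 0 in 31 of 39 (51.9% of all genes), with a median of -0.29 against -0.02 for all genes. Without LFD replicate 2 these were 17 of 34 and a median of 0.0093, and without KD replicate 4 they were 30 of 33 and -0.68. Cdc25a, the phosphatase that activates Cdk2 (0.71, edgeR adjusted p 0.0980), Tfdp2, a partner of E2F (0.74), and Lin37, a subunit of DREAM (0.61), led the G1 list. Pdgfra, a growth factor receptor (-1.74, edgeR adjusted p 0.0674), Akt1, the growth kinase (0.70), and Mlxipl, the glucose-responsive factor ChREBP (-0.45), led the beta cell list. Pdgfra is also among the fibroblast markers, whose sum was 420 to 736 CPM on LFD and 204 to 421 CPM on KD, and its part was not tested. No gene of the 5 lists passed the edgeR test in the comparisons with HFD. Several of the genes just named passed for KD against LFD under other settings, in the same direction. Smc4 did in 5 (adjusted p 0.0111 to 0.0201), Pdgfra in 4 (0.000471 to 0.0209), Akt1 in 4 (0.0133 to 0.0476), Cdc25a in 3 (0.0167 to 0.0424), Pola1 in 2 (0.0257 and 0.0345), Tfdp2 in 2 (0.00279 and 0.0392) and Gmnn in 1 (0.0374). These settings were the DESeq2 Wald test (9.56% of all genes called), limma-voom (10.1%) and no filter on low counts (3.42%). The others were the replicate number as a block (10.8%) and leaving out KD replicate 4 (7.40%) or LFD replicate 3 (5.08%). The main fit called 4.12%.

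Some values carry a limit of counting. The library kit kept strand, but the sources used here do not say whether counting used it, so reads of a gene and an opposite partner may mix. In GENCODE M21 Kif20a shares 29.3% of its exon bases with Cdc23, Ccnd1 23.4% with LTO1, Ube2c 22.8% with Tnnc2, Ccne2 17.4% with Ints8, Ccna2 12.5% with Exosc9 and Prc1 11.1% with Rccd1. Pseudogene copies counted apart held 32 counts for Ccnb2-ps and 28 for Pcna-ps2 over all libraries, so Ccnb2, with 74 counts in all, is uncertain.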

How the data were processed

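RNA-seq of mouse islets was analysed from a table of raw counts per Ensembl gene that the authors deposited, with 1 column per library, and 0 columns were left unused. Trizol-chloroform RNA was selected for poly(A) and made into stranded libraries, per the labels' protocols. The submitters' processing notes name cutadapt 1.16, STAR 2.7.9a, featureCounts 1.6.3, DESeq2 1.40.2 and the build GRCm39 (mm39), with no settings. Gene symbols came from supplied tables and matched 51948 of 56941 identifiers, and 158 of 159 further pathway genes.

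Counts were scaled by TMM and tested with edgeR 4.0.16 in R 4.3.3 (filterByExpr by diet, robust quasi-likelihood fit, 1 mean per diet, all 9 libraries, two-sided, Benjamini-Hochberg over 18548 genes, threshold 0.05). Tested genes held 99.86% to 99.95% of each library's counts. Standard errors divide the change by the root of its F statistic. Wilson and exact intervals and the floor of 3 counts cover counting error only. Libraries of a diet differed by more than counting noise (chi-square per gene at least 22.3). Alternatives were DESeq2 1.42.0, limma-voom (limma 3.58.1), other scalings, filters, samples and covariates, and leaving out libraries. The procedure was tested on simulated data, for KD against LFD, HFD against LFD and KD against HFD in turn. It called 25%, 17% and 23% of 2-fold changes and 71%, 67% and 64% of 4-fold changes. False calls numbered 9, 5 and 8. Many true 2-fold changes would thus not pass.

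The genes, lists and tests were chosen with earlier results of these data known. By rule, values in every library are printed for 14 chosen genes, any gene past the threshold and the 3 lowest p in each comparison, and up to 3 genes per further list are named for KD against LFD. Sequences are RefSeq promoters on GRCm38.p6.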

Additional observations from a re-analysis of the deposited data

Results flagged for a closer look

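In 5 genes and 3 summed roles, KD replicate 4 stood so far above the other 3 KD libraries that its gap passed Dixon's 95% limit for 4 values. Chance passes that limit in about 1 of 20 groups only where values are normally distributed. It was applied here to CPM without a log, so that rate need not hold, and the flags were not checked on a log scale. In all 41 genes and 10 sums over roles were examined, which share libraries and genes. Mki67 was 12.9 CPM in KD replicate 4, with 3.03 CPM in the next KD library. Top2a was 10.6 CPM against 2.76, Kif11 2.87 CPM against 0.622, Cenpf 4.70 CPM against 0.700, and Ube2c 0.986 CPM against 0.134. The sum of Mki67 and Top2a was 23.5 CPM against 5.43, that of the centromere and kinetochore genes 6.72 CPM against 1.51 and that of the spindle and midzone genes 11.2 CPM against 3.56. The groups of 2 and 3 libraries were not checked in this way. The share of all genes past this limit was not computed. KD replicate 4 was the highest KD library for 34.5% of all genes tested on TMM-scaled sizes and 79.5% on raw library sizes. The flags are thus not shown to be particular to these genes.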

How the results depend on the processing

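The count of genes called for KD against LFD, 1, was 0 with DESeq2 size factors, with a stricter filter (1 CPM or more in 3 or more libraries), with only the 2 diets fitted, with a lymphocyte covariate and without both LFD replicate 2 and KD replicate 4 (a setting chosen after seeing the data). It was 2 with limma-voom (Cenpa and Pcna), which called 10.1% of all genes. With an acinar covariate it was 2 (Ccnd2 and Cenpa), where 8.03% of all genes were called. Without single LFD or KD libraries it was 0 to 1, with 0.822% to 7.40% of all genes called. The median log2 fold change of the genes for KD against LFD, -0.21, was 1.03 with the lymphocyte covariate and -0.53 to 0.052 without single libraries (0.052 without LFD replicate 2). For HFD against LFD no setting called a gene, and the median, -0.43, was 0.95 with the lymphocyte covariate and -0.89 to -0.10 without single libraries. With that covariate Cenpa for KD against LFD was 0.40. For KD against HFD the count, 0, was 1 with the DESeq2 Wald test (8.18% of all genes). Without single LFD or KD libraries it was 0 to 1, the 1 without KD replicate 4 (9.84% of all genes). The median, 0.06, was -0.039 with limma-voom, -0.0057 with the CPM filter, -0.57 without both LFD replicate 2 and KD replicate 4, and -0.29 to 0.62 without single libraries. The cause of these moves was not tested. Of 1112 values of 57 results for the cell cycle genes under alternatives, 117 changed sign with no call on either side, 5 moved past the threshold, 11 fell behind it and 1 changed sign after a call.

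The labels do not say that replicate numbers pair the libraries, and the values do not settle it. With 2 HFD libraries the deviations from their mean mirror each other, so pairs with HFD cannot decide it. Same-numbered KD and LFD libraries correlated at 0.222, -0.0164 and -0.00265 in their deviations from the diet means, and not every library correlated best with its own number. With the number as a block the median was -0.54 for KD against LFD, with 1 gene called, where 10.8% of all genes were. It was -0.53 for HFD against LFD, with 0 called (2.13% of all genes). For KD against HFD it was -0.22, with 2 called (12.5% of all genes), Ccne2 and Cdkn2a, both lower on KD. At this depth genes under about 1 CPM rested on few counts in a library.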
